A study of Rattus norvegicus with 12 samples.

Results

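Ribosomal protein genes encode the proteins that join ribosomal RNA to make the cytoplasmic ribosome. They were taken here as all genes of the array whose rat symbol begins with Rpl or Rps and goes on with a ribosomal protein number, or is Rplp0, Rplp1, Rplp2 or Rpsa. Genes of the mitochondrial ribosome and the S6 kinases were left out. The rule uses names only and no measured value. It gave 81 of 15645 named genes, read by 239 probes: 29 genes of the small subunit, 41 of the large subunit, 3 of the ribosomal stalk and 8 paralogs or like genes. Of these, 79 were tested and 78 were well above background on all 12 arrays. Where a gene had several probes, the one with the highest mean over 12 arrays stood for it.

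Total RNA was taken from the kidney cortex (renal cortex) of male rats of the Sprague-Dawley strain (Crl:CD(SD)), bought at 5 weeks of age, and each animal was read on 1 single-colour array. The drug cisplatin, a platinum compound known to bind DNA and to injure kidney tubules, was given for 4 weeks in 2 experiments. In the gavage experiment 3 rats received cisplatin by stomach tube at 3.75 mg/kg/day and 3 received water. In the intravenous experiment 3 rats received cisplatin by injection at 0.75 mg/kg/day and 3 received water. All groups shared the strain, the sex, the basal diet and the tissue. Route, dose and experiment changed together and cannot be told apart. The intravenous dose is that of the sample labels, while a general treatment protocol in the labels names 3.75 mg/kg/day. The series' design text calls the 3 animals of a group biological replicates.

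The small subunit decodes the messenger RNA, the large subunit joins amino acids, and the stalk proteins on the large subunit call in the elongation factors. Transcripts of ribosomal proteins are among the most abundant in a cell. Many of them begin with a C and a run of pyrimidines (a 5' terminal oligopyrimidine, or TOP, tract), through which mTOR signalling and the RNA-binding protein LARP1 set their translation and stability. Several ribosomal proteins that are not built into a ribosome, Rpl5 and Rpl11 among them, bind MDM2, the ligase that keeps p53 low.

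The sequences around the annotated starts show where this tract was matched and where it was not. Each line gives 20 bases before and 20 bases after the start in the RefSeq annotation of GRCr8, on the gene's strand, and the capitals mark a stretch of C and T that begins with a C and in which a C within 5 bases of the start is followed by 4 or more C or T. The set holds 4 genes that were among the 6 largest rises in both experiments (Rps19, Rps15a, Rpl36a and Rpl27a), Rps24, which was among them by injection, a stalk gene (Rplp0), and Rpl22 with its paralog Rpl22l1. With 75th-percentile scaling of the arrays Rpl22 rose by gavage and Rpl22l1 fell, while with spike-in scaling the value of Rpl22l1 was above 0 and did not pass.
Rps19: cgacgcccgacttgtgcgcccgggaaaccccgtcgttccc
Rps15a: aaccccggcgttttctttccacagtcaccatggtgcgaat
Rpl36a: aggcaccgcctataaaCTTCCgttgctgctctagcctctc
Rpl27a: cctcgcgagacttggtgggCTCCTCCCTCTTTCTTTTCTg
Rps24: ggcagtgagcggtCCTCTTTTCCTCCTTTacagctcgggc
Rplp0: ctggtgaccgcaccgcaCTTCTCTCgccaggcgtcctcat
Rpl22: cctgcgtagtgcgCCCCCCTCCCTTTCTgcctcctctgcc
Rpl22l1: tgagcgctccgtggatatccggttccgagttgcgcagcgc

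These windows lie at chr1:89608668-89608707 (Rps19, plus strand), chr1:181860265-181860304 (Rps15a, minus), chrX:102059429-102059468 (Rpl36a, plus), chr1:172974553-172974592 (Rpl27a, plus), chr16:96497-96536 (Rps24, plus), chr12:46718371-46718410 (Rplp0, minus), chr5:168117941-168117980 (Rpl22, plus) and chr2:113683176-113683215 (Rpl22l1, plus). A promoter was matched for 65 of the 81 genes, with 66 annotated starts. The tract was found at 39 of the 66 starts (59.1%), and at 17.0% of all 33469 promoters of the table. Rps19 and Rps15a, which had the largest changes, had no tract at the annotated start used, and Rpl22l1 had none either. Whether the annotated starts are those used in this tissue was not tested, so a missing match does not show that a transcript lacks the tract. The median change of the 39 genes with a tract was 0.44 (gavage) and 0.46 (intravenous) on the log2 scale, and that of the 24 tested genes without one was 0.38 and 0.35, a difference for which no test was made.

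Promoters of 300 bases in length (250 before and 50 after the start) were also searched on both strands for 4 short motifs. GGGCGG, the core that the SP1 factor prefers, was in 57.6% of the members' promoters and in 33.1% of all promoters. CCGGAAG, an ETS-family core, was in 28.8% and 8.75%. AAGATGGC, which resembles a YY1 site, was in 7.58% and 3.17%, and TATAAA was in 10.6% and 14.2%. CCGGAAG and AAGATGGC can overlap by 3 letters. The 250 bases before the starts of the gene with the largest rise, Rps19 (chr1:89608438-89608687, plus strand), and of Rpl22l1, which was called lower by gavage with 75th-percentile and not with spike-in scaling (chr2:113682946-113683195, plus strand), are shown with matches in capitals.
Rps19: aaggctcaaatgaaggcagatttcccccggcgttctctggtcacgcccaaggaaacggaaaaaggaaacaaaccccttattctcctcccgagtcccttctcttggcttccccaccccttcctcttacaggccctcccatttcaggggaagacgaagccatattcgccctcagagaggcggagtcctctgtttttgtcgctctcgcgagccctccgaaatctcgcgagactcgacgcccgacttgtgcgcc
Rpl22l1: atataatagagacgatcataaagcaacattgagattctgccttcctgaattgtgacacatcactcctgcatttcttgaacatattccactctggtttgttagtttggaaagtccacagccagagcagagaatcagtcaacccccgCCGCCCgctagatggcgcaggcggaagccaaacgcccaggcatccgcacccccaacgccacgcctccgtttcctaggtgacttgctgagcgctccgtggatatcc
The Rps19 stretch held none of the 4 motifs, and the Rpl22l1 stretch held 1 GGGCGG, on the opposite strand.

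The arrays differed in brightness by group. Signals at the 75th percentile ran at 1439 to 1532 (gavage cisplatin), 969.7 to 1020 (gavage water), 1387 to 1407 (intravenous cisplatin) and 1008 to 1055 (intravenous water). On each array 66.1% to 73.9% of the probes were well above background, with 0 saturated. The relative signal given here is the processed signal in multiples of the array's 75th percentile. Changes are cisplatin minus water in log2 of that ratio, with the standard error from limma over 12 arrays, and a gene was called where its Benjamini-Hochberg adjusted p over 32215 features was under 0.05. "Rose" and "fell" are used of called genes. Of the gavage arrays, cisplatin replicate 1 shared slide 1 with all 3 water arrays, and cisplatin replicates 2 and 3 shared slide 2 with the 3 water arrays of the intravenous experiment. Slide 3 held the 3 intravenous cisplatin arrays and no other. Slide and treatment therefore cannot be told apart in the intravenous experiment. A fit with slide as a block takes its gavage change from cisplatin replicate 1 alone, set against the 3 water arrays. Between the water groups it corrects by the step from gavage cisplatin replicate 1 to replicates 2 and 3. Values of that fit are effect sizes only.

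Cisplatin by gavage was set against water by gavage, the comparison of treated with control animals that the design names. Most ribosomal protein transcripts were more abundant relative to the array: 56 of the 79 tested genes rose, 1 fell and 22 did not pass. The background was 29.5% of all features higher and 30.2% lower. In such bulk RNA, fewer cells of a type and less RNA per cell cannot be told apart. The median change was 0.44 (1.35-fold) over the members, and 0.00 over all features. The 3 cisplatin arrays all lay above the 3 water arrays for 62 members and all below for 4, while the groups overlapped for 13. Over all features 33.2% lay above and 34.1% below in this way.

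After injected cisplatin 64 of the 79 members rose, 0 fell and 15 did not pass. By limma's unadjusted p under 0.05, 0 were lower as well, and 76 of 79 changes were above 0. The background was 26.1% of all features higher and 32.6% lower. The median change was 0.44 (1.36-fold), against -0.074 over all features. The cisplatin arrays all lay above the water arrays for 70 members and all below for 0, and overlapped for 9, where 29.4% of all features lay above and 36.8% below. Of the 79 members 55 rose in both experiments, 1 only by gavage, 9 only by injection, and 13 rose in neither; the last group does not count Rpl22l1, which fell by gavage.

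**Figure D1:**
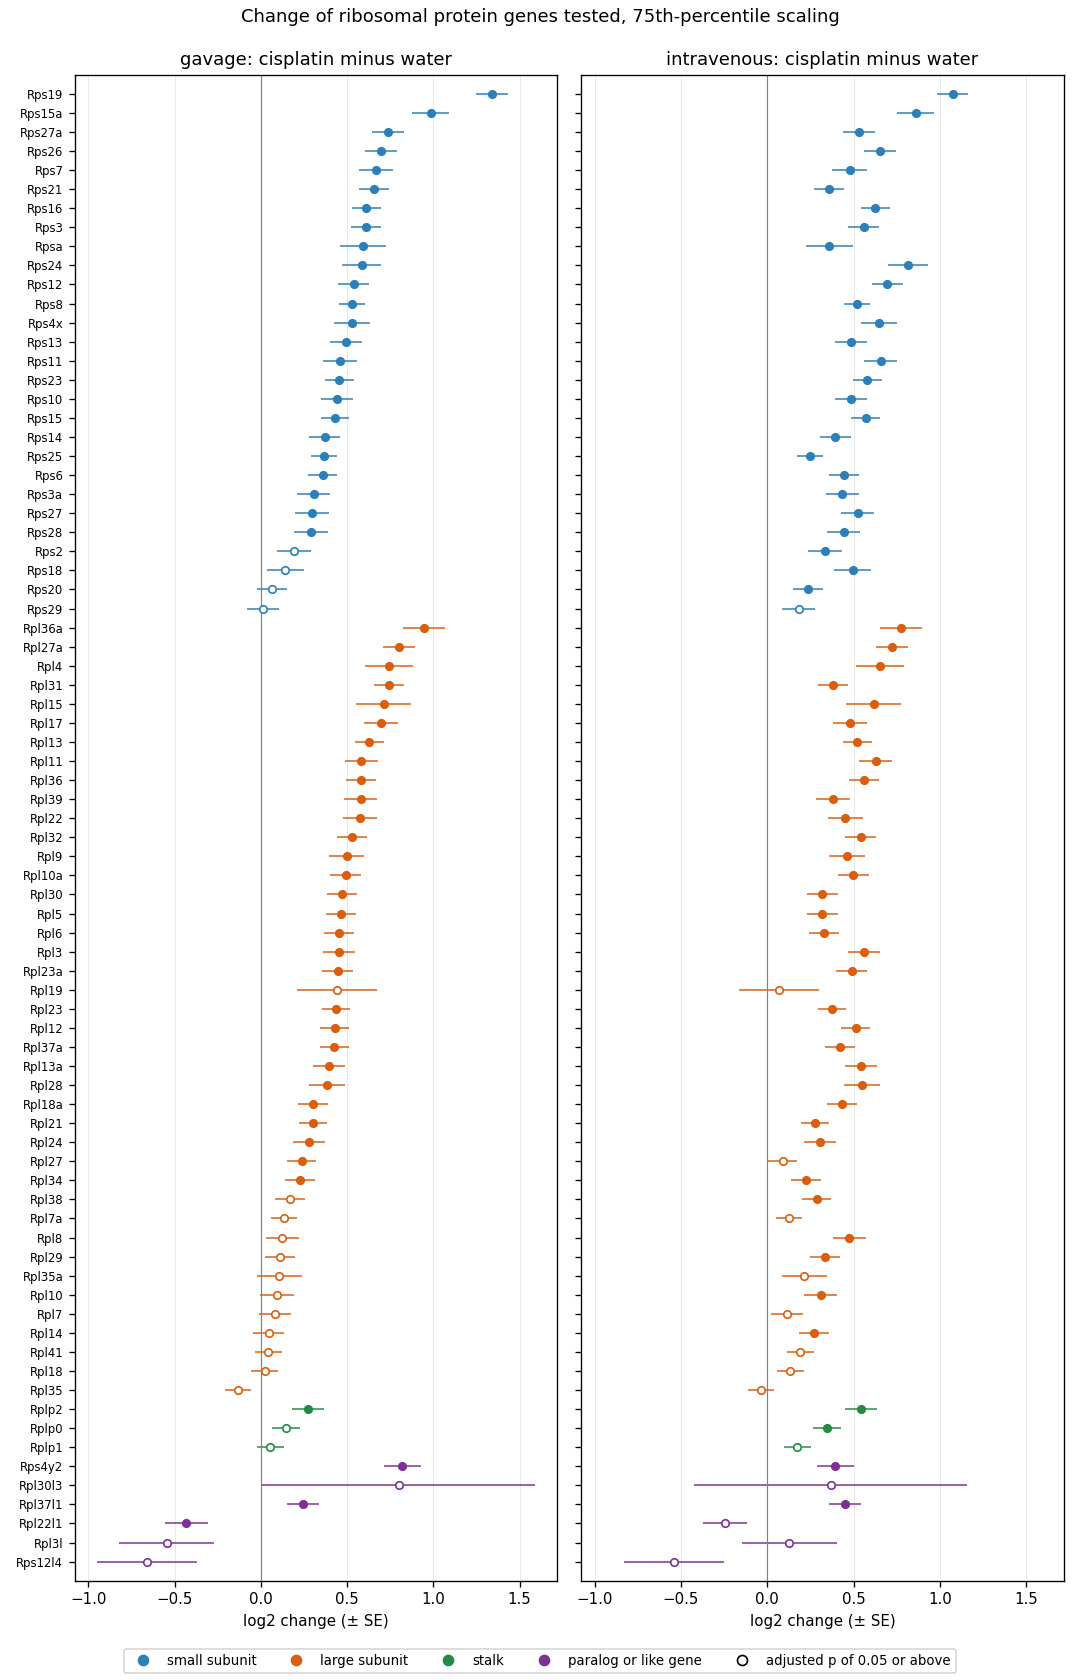
Change of 78 of the 79 tested ribosomal protein genes (points, log2 of cisplatin over water with the standard error as bars; n = 3 animals per group), by role from top to bottom, for gavage (left) and intravenous injection (right) with 75th-percentile scaling. Filled points passed at an adjusted p under 0.05: 56 rose and 1 fell by gavage, 64 rose and 0 fell by injection, and with spike-in scaling no member was called lower in either.

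Of the small subunit genes, by gavage 24 of 29 rose and 5 did not pass (median 0.46), and by injection 27 of 29 rose and 2 did not pass (median 0.49). All 29 changes were above 0 in both experiments. Rps19, whose protein is needed to mature the small subunit and whose human gene is mutated in Diamond-Blackfan anaemia, had the largest change of all members in both. Its relative signal was 149.8, 165 and 154 in gavage cisplatin cortex, against 60.3, 61.4 and 63.4 in gavage water cortex. In the intravenous experiment it was 159.7, 137 and 127 with cisplatin, against 65.7, 68.7 and 66.1 with water. All 6 cisplatin arrays were far above all 6 water arrays, and the groups did not overlap. The change was 1.34 ± 0.09 by gavage (2.53-fold, adjusted p = 2.27e-06) and 1.07 ± 0.09 by injection (2.11-fold, adjusted p = 1.37e-05).

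Rps15a, another small subunit protein, had a relative signal of 144, 144 and 135 in gavage cisplatin cortex, against 72.7, 70.9 and 70.2 with water. By injection it was 153, 124 and 113 with cisplatin, against 71.3, 72.4 and 69.7 with water. The 6 water arrays were close together and the 6 cisplatin arrays all higher, the first intravenous animal highest. The changes were 0.98 ± 0.11 (1.98-fold, adjusted p = 3e-05) and 0.86 ± 0.11 (1.81-fold, adjusted p = 0.000102).

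Rps24, which like Rps19 is a Diamond-Blackfan anaemia gene in people, had 116, 108 and 97.5 in gavage cisplatin cortex, against 72.7, 77.9 and 64.0 with water. Its intravenous values were 113, 109 and 91.5 with cisplatin, against 62.3, 56.3 and 59.3 with water. No cisplatin array reached down to a water array in either experiment. The changes were 0.58 ± 0.11 (adjusted p = 0.00134) and 0.82 ± 0.11 (adjusted p = 0.000209). Rps12 changed by 0.54 ± 0.09 and 0.70 ± 0.09, and Rps27a, which is made as a fusion to ubiquitin, by 0.74 ± 0.09 and 0.53 ± 0.09, all 4 past the test with groups that did not overlap.

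Rps6, the protein that S6 kinases phosphorylate, was moderately higher. It had 291, 256 and 244 in gavage cisplatin cortex, against 205, 202 and 208 with water, and 281, 259 and 251 after cisplatin by injection, against 197, 197 and 187 with water. The groups did not overlap, and the changes were 0.36 ± 0.09 (adjusted p = 0.00448) and 0.45 ± 0.09 (adjusted p = 0.0014). Rpsa is also known as the laminin receptor precursor. It had 62.1, 65.0 and 59.0 in gavage cisplatin cortex, against 36.7, 46.6 and 40.5 with water (0.59 ± 0.13, adjusted p = 0.00328). With slide as a block, which rests on cisplatin replicate 1 alone, the gavage change of Rpsa was 0.60. Injected animals had 55.7, 54.4 and 62.5 with cisplatin, against 52.5, 45.7 and 37.3 with water (0.36 ± 0.13, adjusted p = 0.0395). The last groups were separated by little, and the call ended on leaving out any 1 of 6 arrays (0.23 to 0.40).

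Rps27, a zinc-finger protein of the small subunit, rose by 0.30 ± 0.10 by gavage (adjusted p = 0.023) and 0.52 ± 0.10 by injection (adjusted p = 0.00122). The gavage call ended without water replicate 1 (0.28), water replicate 2 (0.30) or cisplatin replicate 1 (0.21). Rps18 had 194, 172 and 164 in gavage cisplatin cortex, against 151, 159 and 169 with water, and the groups overlapped (0.14 ± 0.11, adjusted p = 0.268); it passed after normexp correction (0.26, adjusted p = 0.0412). Its intravenous values were 204, 173 and 171 with cisplatin, against 130.1, 139 and 119 with water, with no overlap (0.49 ± 0.11, adjusted p = 0.00266). Rps2 (0.19), Rps20 (0.063) and Rps29 (0.013) did not pass by gavage either, and were named after their values were seen. Other probes of Rps2 gave 0.20 to 0.45 by gavage. Some of them passed on their own, the largest with an adjusted p of 0.00159 by limma, and others did not.

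**Figure D2:**
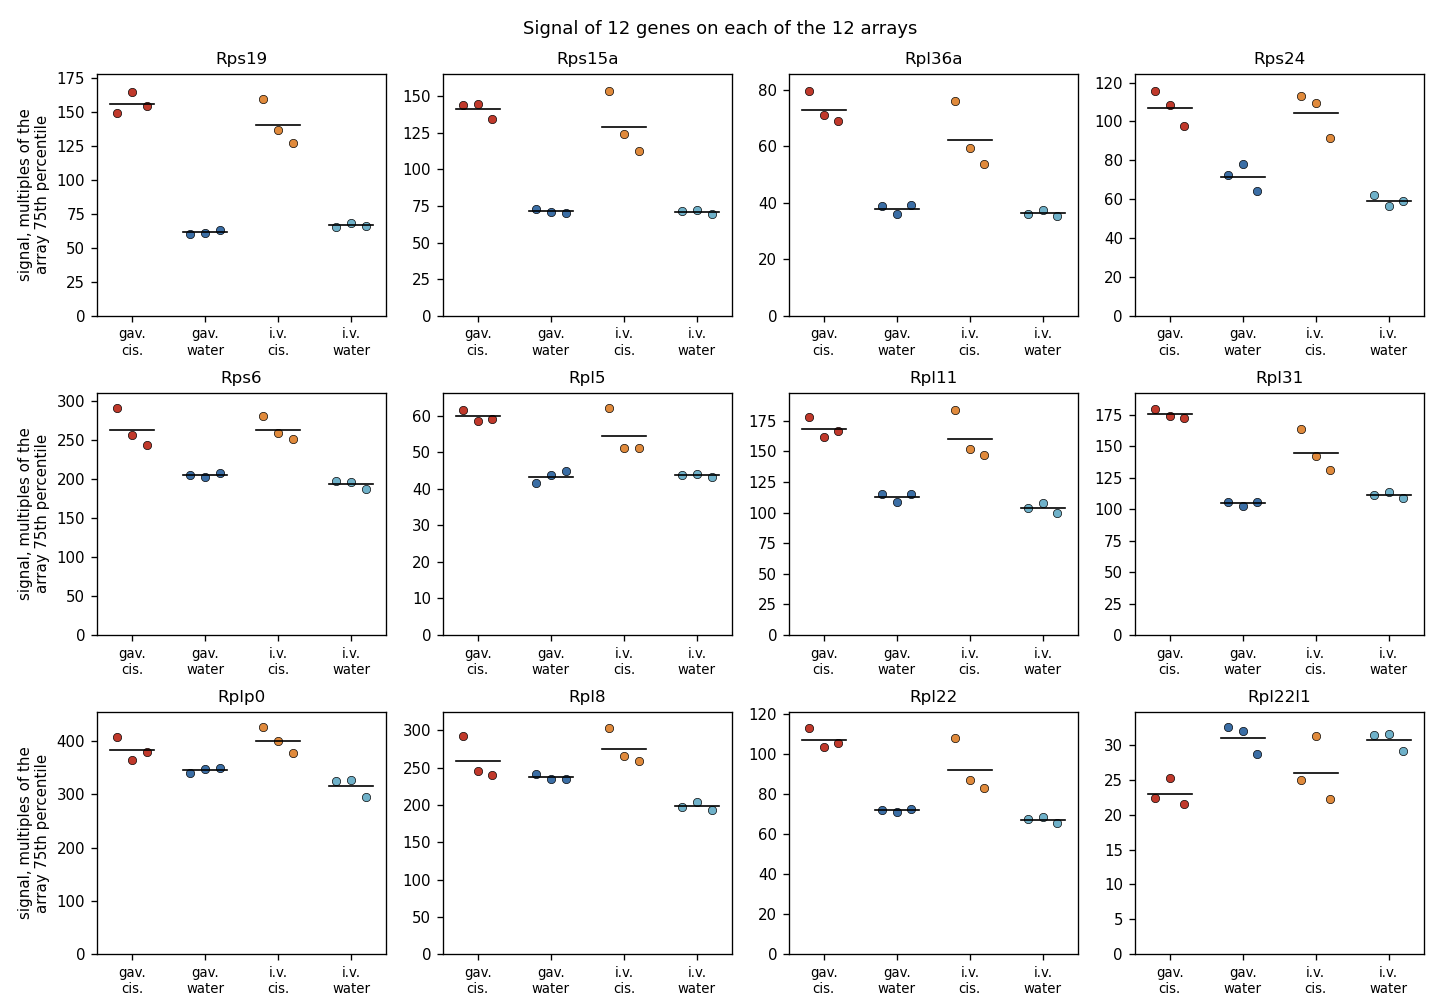
Relative signal (processed signal in multiples of the array's 75th percentile, from 0) of 12 members on each array, for gavage cisplatin, gavage water, intravenous cisplatin and intravenous water from left to right. Points are the 3 animals of a group and lines their geometric means; the cisplatin arrays lie above the water arrays for Rps19 and Rps15a in both experiments, while Rpl22l1 is lower in gavage cisplatin cortex, a direction that turns with spike-in scaling.

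Of the 41 genes of the large subunit 29 rose by gavage and 12 did not pass (median 0.44), and 33 rose by injection and 8 did not pass (median 0.38). Rpl36a, whose protein lies at the tRNA exit site, had the largest change of this subunit. Its relative signal was 79.5, 71.3 and 68.8 in gavage cisplatin cortex, against 38.8, 36.0 and 39.2 with water. It was 75.9, 59.3 and 53.7 after injected cisplatin, against 36.1, 37.5 and 35.5 with water. Water arrays were alike in both experiments and every cisplatin array was higher. The changes were 0.94 ± 0.12 (1.92-fold, adjusted p = 9.85e-05) and 0.78 ± 0.12 (1.71-fold, adjusted p = 0.000434). Rpl27a followed with 0.80 ± 0.09 and 0.72 ± 0.09, and Rpl4, which reaches into the exit tunnel of the nascent chain, with 0.74 ± 0.14 and 0.65 ± 0.14.

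Rpl5 and Rpl11, which carry the 5S ribosomal RNA and can bind MDM2, rose in both experiments. Rpl5 had 61.6, 58.6 and 59.1 in gavage cisplatin cortex, against 41.4, 43.7 and 44.97 with water (0.46 ± 0.09, adjusted p = 0.00122). By injection Rpl5 had 62.0, 51.2 and 51.1 with cisplatin, against 43.8, 44.0 and 43.2 with water (0.32 ± 0.09, adjusted p = 0.0108). Rpl11 had 178, 162 and 167 in gavage cisplatin cortex, against 115, 108 and 115 with water (0.58 ± 0.10, adjusted p = 0.000493). By injection Rpl11 had 184, 152 and 147 with cisplatin, against 104, 108 and 99.7 with water (0.63 ± 0.10, adjusted p = 0.000384). None of these 4 pairs of groups overlapped. Over the 12 tested members that are reported to bind MDM2, 11 rose by gavage and 12 by injection (medians 0.45 and 0.50). Over all 79 tested members 56 and 64 rose (medians 0.44 and 0.44), and over all features 29.5% and 26.1% were higher. The MDM2 binders were not tested as a set.

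Rpl3, which helps to form the peptidyl transferase centre, changed by 0.45 ± 0.09 and 0.56 ± 0.09, and Rpl39, which lines the exit tunnel, by 0.58 ± 0.10 and 0.38 ± 0.10, all past the test. Rpl31, found at the tunnel's mouth, had 179.5, 174 and 173 in gavage cisplatin cortex, against 106, 103 and 106 with water (0.74 ± 0.09, adjusted p = 5.27e-05). By injection it had 163, 142 and 131 with cisplatin, against 111, 113.95 and 109 with water (0.38 ± 0.09, adjusted p = 0.00379). Rpl8, close to the peptidyl transferase centre as well, had 292, 246 and 241 in gavage cisplatin cortex, against 242, 235 and 234 with water, where the groups overlapped (0.13 ± 0.10, adjusted p = 0.283). Rpl8 passed by gavage with the mean of its probes (0.28, adjusted p = 0.0262). With slide as a block, which rests on gavage cisplatin replicate 1 alone, it gave 0.30. By injection Rpl8 had 304, 265 and 259 with cisplatin, against 197, 204 and 193 with water (0.47 ± 0.10, adjusted p = 0.0019). Rpl35 was the only large subunit gene with a change below 0, and it did not pass (-0.13, adjusted p = 0.146, and -0.04, adjusted p = 0.696); it turned to 0.53 and 0.52 with spike-in scaling. It was singled out after its values were seen.

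The 3 stalk genes had a median change of 0.15 by gavage, with 1 called, and of 0.35 by injection, with 2 called. Rplp0, the stalk's base, had 407, 365 and 380.4 in gavage cisplatin cortex, against 341, 349 and 350.1 with water. The groups did not overlap, but the change was 0.15 ± 0.08 (adjusted p = 0.143), while the mean of its probes gave 0.43 (adjusted p = 0.00176). The intravenous arrays had 427, 400.1 and 379 with cisplatin, against 325, 328 and 295 with water (0.35 ± 0.08, adjusted p = 0.00443). Rplp2 rose by 0.28 ± 0.09 by gavage (adjusted p = 0.0259), a call that ended without any 1 of 4 of the gavage arrays (0.20 to 0.28), and by 0.54 ± 0.09 by injection (adjusted p = 0.000735). Rplp1 gave 0.055 ± 0.08 (adjusted p = 0.564) and 0.17 ± 0.08 (adjusted p = 0.0778) and did not pass in either. The mean of the Rplp1 probes passed in both, at 0.27 (adjusted p = 0.0126) and 0.27 (adjusted p = 0.0148). Rplp1 also passed in both after quantile normalization (0.62 and 0.55), and by injection with normexp (0.30). With spike-in scaling all 3 rose in both experiments (0.72 to 1.10).

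The 8 paralogs and like genes did not move as a body. Of 6 tested, 2 rose and 1 fell by gavage, and 2 rose and 0 fell by injection. Rpl22l1, the paralog of Rpl22, was the 1 member called lower by gavage in the fit of 12 arrays with 75th-percentile scaling, and it was not lower with spike-in scaling. With only the 6 gavage arrays 3 members were called lower. Rpl22l1 had 22.4, 25.3 and 21.5 in gavage cisplatin cortex, against 32.5, 31.9 and 28.7 with water (-0.43 ± 0.13, adjusted p = 0.0128). By injection it had 25.0, 31.2 and 22.2 with cisplatin, against 31.4, 31.6 and 29.2 with water, and the groups overlapped through replicate 2 (-0.25 ± 0.13, adjusted p = 0.116). With spike-in scaling the values were 0.23 (adjusted p = 0.212) and 0.31 (adjusted p = 0.114), so that its direction depended on the scaling. Its other probes read -0.23 to -0.79 by gavage and -0.58 to -0.78 by injection.

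Rpl22 itself, an RNA-binding protein of the large subunit, had 113, 103 and 105 in gavage cisplatin cortex, against 72.1, 71.3 and 72.6 with water. By injection it had 108, 86.9 and 83.0 with cisplatin, against 67.7, 68.6 and 65.6 with water. All cisplatin arrays were above all water arrays, and it rose by 0.57 ± 0.10 (adjusted p = 0.000697) and 0.45 ± 0.10 (adjusted p = 0.00329). In mice Rpl22 is known to hold down the expression of Rpl22l1.

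Rps4y2, a paralog of Rps4x, had 20.2, 18.4 and 21.5 in gavage cisplatin cortex, against 11.9, 10.2 and 12.0 with water (0.82 ± 0.11, adjusted p = 9.95e-05). After injection it had 18.6, 17.2 and 15.5 with cisplatin, against 13.0, 13.9 and 12.1 with water (0.39 ± 0.11, adjusted p = 0.00926). Its other probe gave 0.53 ± 0.42 and -0.30 ± 0.42, and with the mean of both probes the intravenous value was 0.05 and no longer passed. Rpl3l, the form of Rpl3 found in heart and skeletal muscle of mice and people, was dim, at 0.0308 to 0.0934 on all arrays, and did not pass (-0.55 ± 0.28, adjusted p = 0.113, and 0.13 ± 0.28, adjusted p = 0.711). By gavage it passed with only the 6 gavage arrays (adjusted p = 0.0426), and with normexp and quantile processing. The gavage call also came without intravenous cisplatin replicate 1 or 2. With spike-in scaling the gavage value was 0.12 (adjusted p = 0.742). With slide as a block, which rests on gavage cisplatin replicate 1 alone, it was -0.94. Rps12l4 and Rpl30l3 did not pass in either experiment, and Rpl37l1 rose in both (0.24 and 0.45). Rpl27l2 was well above background on 0 of 12 arrays and Rpl39l1 on 4 of 12, so these 2 were not tested. The like genes were singled out after their values were seen, and their probes may also read near-identical copies.

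Ribosomal protein genes have many near-identical pseudogene copies in mammals, and a probe cannot tell such copies from the gene, so each value may hold signal of copies. The single probes of the members allow a comparison within a gene. Of 239 probes 235 were tested one by one. By gavage 183 rose and 3 fell, where the background was 29.6% of single probes higher and 29.9% lower, and by injection 192 rose and 3 fell (27.6% and 30.6%). All probes that fell were those of Rpl22l1. Of the 71 genes with 2 or more tested probes, all probes rose in 46 by gavage and in 49 by injection, and no gene had probes called in opposite directions.

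The 4 probes of Rps19 gave 1.20 to 1.39 by gavage and 1.07 to 1.34 by injection, and those of Rps15a 0.98 to 1.19 and 0.69 to 1.055. Probes of Rplp0 were spread more, at 0.15, 0.27 and 0.86 by gavage and 0.35, 0.53 and 0.84 by injection, and the brightest, which stood for the gene, gave the smallest change. The same held for Rplp1 (0.055 against 0.49 for its other probe by gavage). One probe of Rps26 gave 1.18 ± 0.19 by gavage and 0.11 ± 0.19 by injection, and one of Rpl34 0.60 ± 0.08 and -0.04 ± 0.08; both were singled out after their values were seen. Across the 79 members the rank correlation of the mean level with the change was -0.42 by gavage and -0.19 by injection (Pearson 0.24 and 0.30). The values come from the same 12 arrays, and levels of different probes are not on a common scale.

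**Figure D3:**
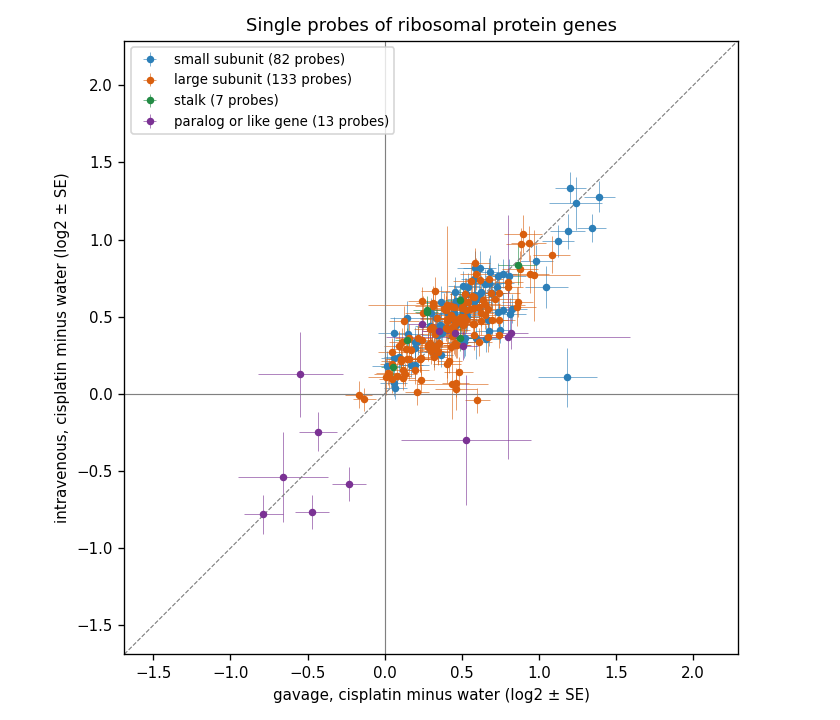
Change of each of 235 single probes of ribosomal protein genes by gavage (horizontal axis) and by injection (vertical axis), in log2 of cisplatin over water with standard errors (n = 3 animals per group), coloured by role; the dashed line marks equal changes. The 4 probes of Rps19 are among those farthest to the upper right, and the 3 probes that fell in each experiment are all of Rpl22l1, whose values lie to the lower left with 75th-percentile scaling.

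The members' level was spread wider over the animals of the cisplatin groups (SD of the array medians 0.08 by gavage and 0.13 by injection, n = 3 each) than over those of the water groups (0.0080 and 0.046), a difference that was not tested. With each gene centred on its mean over 12 arrays, the median of the members was 0.32, 0.23 and 0.17 on the gavage cisplatin arrays, against -0.17, -0.18 and -0.18 on the gavage water arrays. By injection it was 0.33, 0.13 and 0.09 with cisplatin, against -0.25, -0.21 and -0.30 with water. All 6 cisplatin arrays were above all 6 water arrays. Intravenous cisplatin replicate 1 was the highest array of its group for 75 of the 79 members, and gavage cisplatin replicate 1 for 59. Leaving out that intravenous animal gave 59 rises by injection, and leaving out that gavage animal gave 48 by gavage.

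The members kept much of their order between the experiments. Across the 79 genes the gavage and the intravenous change had a Pearson correlation of 0.81 and a Spearman correlation of 0.71, as a description over genes measured on the same arrays. The difference of the effects, intravenous minus gavage, was called for 0 members by limma, with 5 at an unadjusted p under 0.05 (6.33% of members, where 19.4% of all features had one; smallest adjusted p 0.158). Its median was 0.03, and -0.080 with spike-in scaling. Over all features 0.161% were called higher and 1.02% lower. Rpl31 had the smallest p (-0.36 ± 0.12), followed by Rps4y2 (-0.43 ± 0.15), Rpl8 (0.35 ± 0.14) and Rps21, at p-values that did not pass after adjustment. Rpl31 passed without intravenous cisplatin replicate 1 (-0.45, adjusted p = 0.0363) and with array weights (-0.42, adjusted p = 0.0442). These values are those of its brightest probe. The other Rpl31 probes gave 0.51 to 0.64 by gavage and 0.57 to 0.74 by injection, and their difference was not tested.

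Between the water groups, intravenous minus gavage, 0 members were called by limma and 7 had an unadjusted p under 0.05 (8.86%, where 14.1% of all features had one; smallest adjusted p 0.234). Of all features 0% were called. The median of the members was -0.085 with 64 of 79 values below 0, but it was 0.085 with 65 of 79 above 0 under spike-in scaling, and 0.022 with slide as a block. The 4 with the smallest p were Rps18 (-0.31 ± 0.11), Rplp2 (-0.25 ± 0.09), Rpl8 (-0.26 ± 0.10) and Rps27 (-0.26 ± 0.10).

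The counts above are relative to the 75th percentile of each array, and the brighter cisplatin arrays bear on that scale. The arrays carry probes for E1A, a control RNA that is not from the rat, and 7 of its 10 probes were well above background and not saturated on all 12 arrays. Their log2 level minus the array's 75th percentile was 3.53 ± 0.18 in gavage cisplatin and 4.20 ± 0.03 in gavage water (SD, n = 3 each), a difference of -0.67 (exact permutation test, two-sided, p = 0.1, the smallest that 3 against 3 allows). It was 3.47 ± 0.05 in intravenous cisplatin and 4.03 ± 0.11 in intravenous water, a difference of -0.56 (exact permutation p = 0.1). The E1A level alone differed by -0.10 and -0.12, and the 75th percentile by 0.56 and 0.44. The step at which the control RNA was added, not given in the sources used here, bears on what this scaling holds fixed.

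With the arrays scaled to E1A, 75 of 79 members rose by gavage and 74 by injection, and 0 fell in either, since all 79 changes were above 0. The background then was 62.2% of all features higher and 9.63% lower by gavage, and 52.9% higher and 9.41% lower by injection. The median change of the members was 1.10 (2.15-fold) and 1.00 (2.00-fold), but that of all features was 0.67 and 0.49. Relative to the median of all features the members' median was higher by 0.43 by gavage and 0.52 by injection, a gap that either scaling leaves as it is because each shifts all features of an array alike. After quantile normalization the gap was 0.71 and 0.66. All 29 small subunit genes and all 3 stalk genes rose in both experiments with this scaling, with all 41 large subunit genes by gavage and 40 by injection. Which scaling is nearer to RNA per cell was not tested.

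**Figure D4:**
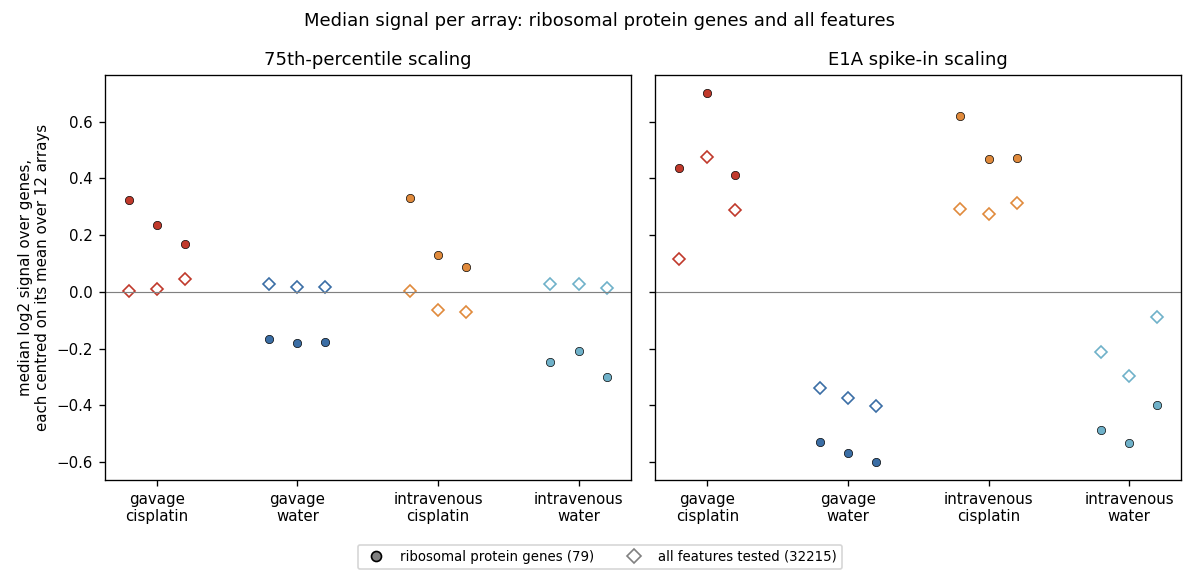
Median log2 signal on each array (each gene centred on its mean over 12 arrays) of the 79 ribosomal protein genes (filled circles) and of all 32215 features tested (open diamonds), with 75th-percentile scaling (left) and E1A spike-in scaling (right), for the 3 animals of each group. The circles of the cisplatin groups lie above the diamonds and those of the water groups below them under both scalings, while the diamonds themselves move up with cisplatin only under spike-in scaling.

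Genes outside the cytoplasmic ribosome show what did and did not move with it. For the lists and markers that follow, the background was 29.5% of all features higher and 30.2% lower by gavage. It was 26.1% and 32.6% by injection. With spike-in scaling it was 62.2% higher and 9.63% lower by gavage, and 52.9% and 9.41% by injection. No list was tested as a set. Of 65 tested genes of the mitochondrial ribosome, which makes the proteins encoded in mitochondrial DNA, 0 rose and 46 fell by gavage (median -0.42), and 2 rose and 32 fell by injection (median -0.27), but with spike-in scaling the medians were 0.24 and 0.29, with 23 up and 4 down by gavage and 26 up and 2 down by injection. The spike-in medians were below the 0.67 and 0.49 of all features, and at limma's unadjusted p under 0.05 in the first scaling 1 was higher by gavage. Mrps31 changed by -1.26 ± 0.13 and -0.75 ± 0.13, Mrpl16 by -1.08 ± 0.11 and -0.95 ± 0.11, and Mrpl34 by -0.91 ± 0.09 and -0.83 ± 0.09. With spike-in scaling Mrpl16 still fell in both, while Mrps31 fell only by gavage and Mrpl34 in neither.

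Genes of ribosome assembly were mostly higher. Of 41 tested, 27 rose and 4 fell by gavage (median 0.37), and 30 rose and 2 fell by injection (median 0.43), while with spike-in scaling 37 and 38 rose and 1 and 0 fell. Nop58, a core protein of box C/D small nucleolar particles, rose by 1.03 ± 0.11 and 0.84 ± 0.11, Heatr1, a factor of early small subunit assembly, by 0.87 ± 0.10 and 0.96 ± 0.10, and Wdr43 by 0.76 ± 0.09 and 0.89 ± 0.09. Utp4, of the same early assembly step, fell by 1.23 and by 0.50 on the log2 scale, and with spike-in scaling it was -0.56 and 0.063. Of 13 genes of RNA polymerase I, which makes the ribosomal RNA precursor, 7 rose in each experiment, 1 fell by gavage and 0 fell by injection (medians 0.36 and 0.47), with 0 lower by injection at limma's unadjusted p under 0.05. With spike-in scaling 12 of the 13 rose and 0 fell in each experiment. Taf1c, of a factor that starts this polymerase, rose by 0.71 and 0.73, but the mean of its probes gave 0.11 and 0.17 and did not pass. Polr1g, a subunit, had 6.70, 6.20 and 6.19 in gavage cisplatin cortex, against 1.02, 1.06 and 1.10 with water (2.59 ± 0.10, adjusted p = 1.39e-07), and rose by 2.47 ± 0.10 by injection.

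Elongation factors and other transcripts known to carry a TOP tract were also listed. Of 19, 9 rose and 1 fell by gavage (median 0.21), and 10 rose and 4 fell by injection (median 0.24), while with spike-in scaling 19 and 16 rose and 0 fell; one of them, Vim, is also a marker of injury here. Rack1, a scaffold on the small subunit, rose by 0.67 ± 0.10 and 0.65 ± 0.10, Eef1g by 0.66 ± 0.12 and 0.85 ± 0.12, and Nap1l1 by 0.86 ± 0.08 and 0.83 ± 0.08. Fau, which makes a ribosomal protein as a fusion to a ubiquitin-like protein and does not carry an Rpl or Rps symbol, did not rise with 75th-percentile scaling, while it rose with spike-in scaling (0.43 and 0.55). It fell by 0.23 by gavage (adjusted p = 0.0395), a call that ended without any 1 of 8 arrays, and gave -0.01 by injection.

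Of 25 initiation factors 8 rose and 5 fell by gavage (median 0.03), and 11 rose and 3 fell by injection (median 0.15). With spike-in scaling 23 and 22 rose and 0 fell (medians 0.70 and 0.71). Shares over all features, for this list and the next, were 29.5% higher and 30.2% lower by gavage, and 26.1% and 32.6% by injection. With spike-in scaling 62.2% and 52.9% of all features were higher. Eif2b3, of the exchange factor for eIF2, rose by 1.61 ± 0.17 and 1.31 ± 0.17, and Eif1a by 1.12 ± 0.09 and 0.79 ± 0.09, while the helicase Eif4a2 fell by 0.59 and 0.47, values of 0.078 and 0.087 with spike-in scaling. Of 13 genes of mTOR signalling and LARP1, 1 rose and 3 fell by gavage, and 2 rose and 3 fell by injection (medians -0.15 and -0.014). With spike-in scaling 11 rose and 0 fell by gavage, and 9 rose and 1 fell by injection (medians 0.52 and 0.55). Eif4ebp1, a repressor of cap-dependent initiation that mTOR switches off, had 17.0, 14.7 and 19.7 in gavage cisplatin cortex, against 3.00, 3.29 and 3.08 with water (2.45 ± 0.17, adjusted p = 2.52e-06), and rose by 2.08 ± 0.17 by injection. Its relative Eif4ebp2 fell by 0.89 and 0.98, which was -0.23 (adjusted p = 0.13) and -0.42 with spike-in scaling. Mtor fell by 0.52 and 0.46, which was 0.14 and 0.10 for Mtor with spike-in scaling.

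**Figure D5:**
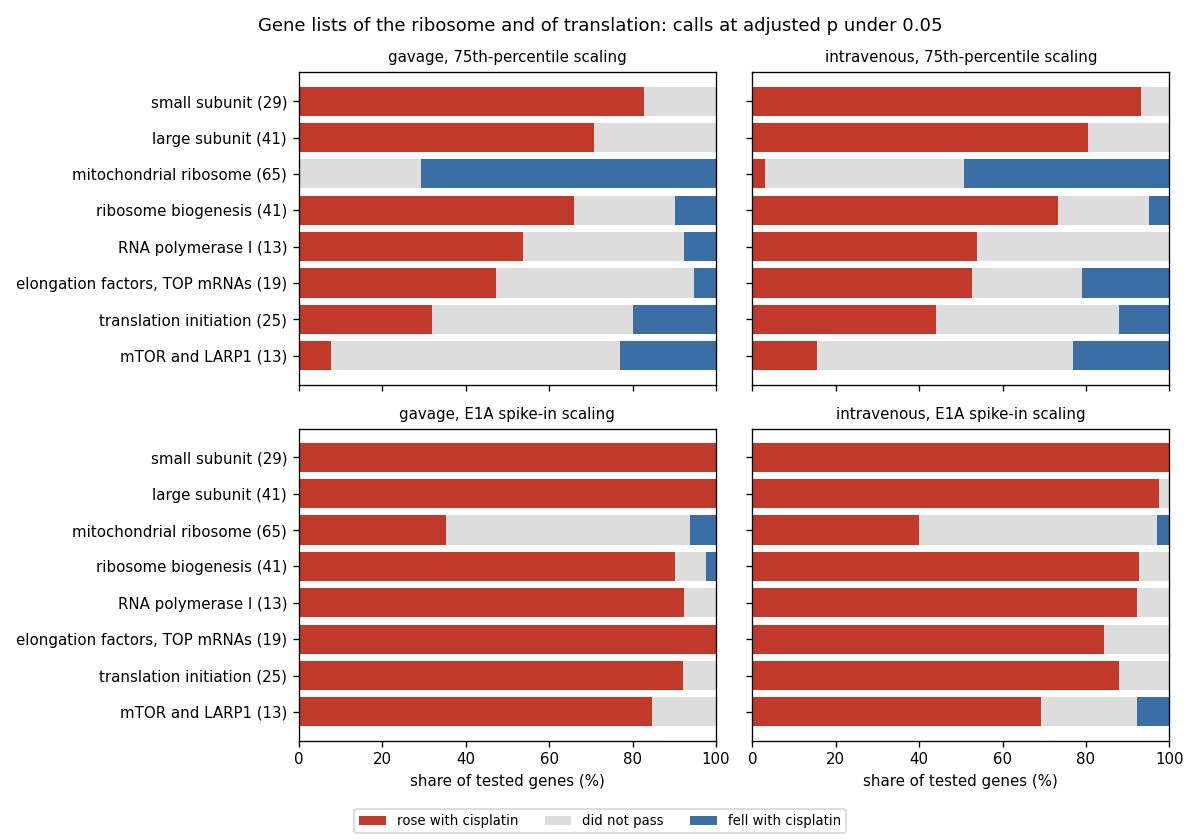
Share of tested genes (horizontal axis, percent; number tested in brackets) that rose, did not pass or fell with cisplatin against water at an adjusted p under 0.05, for 8 gene lists by gavage (left) and injection (right), with 75th-percentile scaling (top) and E1A spike-in scaling (bottom). By gavage 24 of 29 small subunit and 29 of 41 large subunit genes rose with the first scaling while 46 of 65 mitochondrial ribosome genes fell; with the second, 23 mitochondrial ribosome genes rose and 4 fell.

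Cell type markers moved with the treatment in the same RNA. Of 6 proximal tubule markers, 6 fell by gavage and 5 by injection, and each of the 6 was well above background on all 12 arrays. Their summed relative signal was 69.7 to 150.6 in gavage cisplatin cortex, against 956 to 1088 with water, and 112 to 374 after injected cisplatin, against 885 to 1020 with water. Of 4 thick limb and distal markers 4 fell in both, with sums of 7.21 to 13.5 in gavage cisplatin cortex, against 459.7 to 506 with water, and 8.21 to 48.7 after injected cisplatin, against 469 to 558 with water. Collecting duct markers fell in 3 of 4 by gavage and 2 of 4 by injection, while their sums overlapped. They were 92.6 to 174.7 in gavage cisplatin cortex, against 100.7 to 134.8 with water. After injected cisplatin they were 55.0 to 132.9, against 89.9 to 99.96 with water. Podocyte markers fell in 3 of 4 in both, and endothelial markers in 2 of 4 in both. With spike-in scaling 2 collecting duct markers fell and 1 rose by gavage, and 1 fell and 0 rose by injection. With that scaling no podocyte marker fell and 1 rose by injection, and 2 of 4 endothelial markers rose and 1 fell in each experiment. Proximal tubule markers then fell in 5 of 6 by gavage and 4 of 6 by injection, and all 4 thick limb and distal markers fell in both.

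All 4 fibroblast markers rose in both experiments. They summed to 65.2 to 97.2 in gavage cisplatin cortex, against 11.8 to 18.2 with water, and to 46.9 to 91.2 after injected cisplatin, against 10.8 to 16.4 with water. Of 6 macrophage markers 5 rose in both, with sums of 10.46 to 17.8 in gavage cisplatin cortex, against 3.75 to 4.14 with water, and 10.49 to 14.39 after injected cisplatin, against 3.79 to 5.83 with water. Cd163, a macrophage marker, was not above background on the 3 gavage water arrays. Lymphocyte markers rose in 1 of 6 by gavage and in 4 of 6 by injection, with sums of 2.13 to 2.73 in gavage cisplatin cortex, against 1.63 to 2.14 with water, and 2.32 to 5.04 after injected cisplatin, against 1.24 to 1.71 with water.

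Markers of tubule injury rose in 6 of 6 by gavage and 5 of 6 by injection. They summed to 483 to 551 in gavage cisplatin cortex, against 21.0 to 23.0 with water, and to 470.3 to 554 after injected cisplatin, against 20.3 to 25.6 with water. Genes of dividing cells rose in 4 of 5 by gavage and 5 of 5 by injection, with sums of 14.6 to 16.8 in gavage cisplatin cortex, against 5.13 to 6.76 with water, and 12.3 to 23.2 after injected cisplatin, against 5.59 to 7.93 with water. Red cell markers fell in 5 of 5 in both, with sums of 5.04 to 8.66 in gavage cisplatin cortex, against 457 to 589 with water, and 27.3 to 71.8 after injected cisplatin, against 561 to 678 with water. With spike-in scaling 4 of 5 red cell markers fell in both. The part of these cell types in the change of the ribosomal protein genes was not tested.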

How the data were processed

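RNA of 12 renal cortices was read on Agilent single-colour arrays of 61537 probes (28206 with 1 gene symbol, 33331 without). The deposited scanner files hold intensity values that Feature Extraction 10.7.1.1 background-subtracted within each array, per the file headers, on a design built on rn4; the submitters' processing notes name version 10.7. The deposited value table was found to be a linear ratio, the processed signal divided by the array's 75th percentile. Probes were named through RefSeq accessions, and 82 uneven spots were dropped. Log2 processed signal minus the array's 75th percentile was fitted with limma 3.58.1 (R 4.3.3, python 3.11.15) on 12 arrays with 4 group means, for features well above background on all 3 arrays of a group (32215 of 45433). The residual degrees of freedom were 8 with 2.09 from the prior, tests were two-sided, and Benjamini-Hochberg adjustment ran over all features. The number of arrays limits the precision. Members and lists were chosen with earlier results of these data known.

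Genes named are the 6 largest called changes in each direction per cisplatin comparison, a set of well-known members, the 4 smallest p for the other contrasts, and up to 4 genes per other list; others are said to be named after their values were seen. The lists were the subunits, the stalk, MDM2-binding members, the mitochondrial ribosome, ribosome assembly, RNA polymerase I, elongation and TOP transcripts, initiation, mTOR with LARP1, and markers of 11 cell types or states. Alternatives were spike-in scaling, quantile and normexp processing, the deposited table, filters, probe averages, slide and replicate blocks, array weights and leaving out each array. On data simulated for the gavage comparison (32176 genes), 13 of 100 genes with a log2 change of 0.5 and 58 of 100 with a change of 1 were called, with 2 false calls. Only these genes were changed there, while in the data 29.5% of features were called higher and 30.2% lower. The adjusted threshold is stricter where few genes change, so these numbers do not carry over to the fit of the data. Samples with the same replicate number did not deviate together (correlations -0.352 to 0.182), so the numbers were not taken to pair animals. Some genes are counted in the lists but not reported singly here.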

Additional observations from a re-analysis of the deposited data

How the results depend on the processing

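The choice of scaling moved the sizes most. The median change of the members by gavage was 1.10 with spike-in scaling, 1.046 with all 10 E1A probes, 0.99 with E1A and slide as a fixed block, and 0.70 after quantile normalization, and by injection it was 1.00, 0.94 (all 10 probes) and 0.62 (quantile). The median difference of effects was -0.080 with E1A scaling, -0.083 with all 10 probes, -0.072 after quantile normalization, and -0.054 to 0.088 with 1 array left out. The water groups' median difference was 0.085 with E1A, 0.040 with all 10 probes and 0.022 with the slide block, and -0.10 to -0.06 with 1 array left out. Members that rose numbered 51 to 75 by gavage and 55 to 74 by injection over the settings tried, and 48 to 56 and 57 to 64 with 1 array left out, where medians were 0.40 to 0.47 and 0.37 to 0.49.

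Members that fell by gavage numbered 0 with E1A scaling, by its main probes or by all 10, and 2 with quantile normalization. They numbered 3 with normexp or only the 6 arrays of the experiment, and 1 to 2 with 1 array left out. By injection they numbered 1 with normexp, 1 with the mean of probes and 0 to 1 with 1 array left out, and for the difference of effects 1 (Rpl31) with array weights and 0 to 1 with 1 array left out. With the replicate block 56 rose and 1 fell by gavage (median 0.44), and 62 rose and 0 fell by injection; Rpsa by injection no longer passed under the block (adjusted p = 0.0601).

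Signs turned as follows, and the causes were not tested. By gavage, E1A scaling, then all 10 probes, gave Eif4a2 0.078 and 0.021, Fau 0.43 and 0.38, Mtor 0.14 and 0.086, Rpl22l1 0.23 and 0.18, and Rpl3l 0.12 and 0.064. With E1A and the slide block Fau was 0.42 and Rpl22l1 0.036, and Fau was 0.048 after quantile normalization. By injection, E1A scaling, then all 10 probes, gave Eif4a2 0.087 and 0.029, Fau 0.55 and 0.49, Mtor 0.10 and 0.046, Rpl22l1 0.31 and 0.26, and Utp4 0.063 and 0.0042. Fau by injection was 0.18 with quantile, 0.0017 with normexp, 0.024 with the mean of probes and -0.047 to 0.014 with 1 array left out. Rpl3l by injection was -0.088 with normexp, -0.14 with the mean of probes and -0.20 to 0.43 with 1 array left out. Between the water groups, the slide block gave Rpl8 0.0052 and Rps27 0.0098. Rpl22l1 by gavage no longer passed after quantile normalization (-0.16), and by injection it fell with the mean of probes (-0.59, adjusted p = 0.000557) and without intravenous cisplatin replicate 2 (-0.38, adjusted p = 0.0158). Of the values of single genes, 1274 kept their direction and side of the threshold under other settings. Of the rest, 30 turned in sign, 28 lost a call and 32 gained one. The slide could not be fitted as a block in the intravenous comparison, where slide 3 held cisplatin arrays only. In the gavage comparison the slide block left cisplatin replicate 1 alone against the water arrays. Rpl27l2 and Rpl39l1 were too dim to be tested.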
